A study of Canis lupus familiaris with 12 samples.

Results

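The genes described here encode the centromere and the kinetochore, the protein assembly on each chromosome that grips the spindle during cell division. A list of 39 such genes was looked up by symbol in the probe-to-gene table of the array platform, and 32 of them were found, on 63 probe sets, among 15115 named genes and 42924 tested probe sets. By class, 13 of 16 centromere chromatin genes, 12 of 14 outer kinetochore genes, 5 of 7 checkpoint genes and 2 of 2 shugoshin genes were measured. BUB1, CENPE, CENPL, CENPW, HJURP, MAD2L1 and SKA2 were not measured here.

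A centromere is marked by nucleosomes that hold CENP-A, a variant of histone H3, and these are bound throughout the cell cycle by the constitutive centromere-associated network (CCAN), the inner kinetochore. Before mitosis the MIS12 complex, KNL1 and the NDC80 complex assemble on it as the outer kinetochore, and NDC80 binds the microtubules. Checkpoint proteins gather on kinetochores that have not yet attached and hold back anaphase, and shugoshins guard the cohesin that joins sister chromatids. Transcripts of many of these genes are abundant in dividing cells and scarce in resting ones.

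The samples were cultures of C2, a canine mast cell tumour line with a mutated KIT receptor that is active even without ligand. Flasks of this line were given 100 nM masitinib, a tyrosine kinase inhibitor that blocks KIT among other kinases. RNA was taken before the inhibitor was added (0 h) and after 12, 24 and 72 h with it, on 3 Affymetrix Canine Genome 2.0 arrays per time point and 12 in all. No flasks kept untreated for these lengths of time were analysed here, so an effect of the inhibitor cannot be told apart from one of culture time. The replicates are flasks of one line, and their p-values measure the spread between such flasks only.

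The values are the authors' log2 expression values, and a change is a difference of group means on that scale, so that -1 is a 2-fold fall. Array medians lay between 5.889 and 5.947, and arrays of the same time point correlated across probe sets at Pearson's r of 0.9952 to 0.9979. A residual component shared by many probe sets carried 33.2% of the spread within time points, with array 3 at 72 h (-0.60), array 1 at 0 h (0.38), array 1 at 24 h (-0.37) and array 1 at 72 h (0.35) farthest out. Of 9 mast cell markers 8 were measured, and 7 of them lay above the 90th percentile of all tested probe sets. As signs of RNA quality, 3' probe sets exceeded 5' probe sets by group means of 0.828 to 1.17 (log2) for ACTB and 0.457 to 0.626 for GAPDH. Poly-A control probe sets read RNAs meant to be added to each sample in fixed amounts, a step that the study's methods do not describe. These controls read higher by 0.29, 0.60 and 0.47 (log2) at 12, 24 and 72 h than at 0 h. When the arrays were scaled to them, the median of all probe sets moved to -0.28, -0.57 and -0.44, so the changes given below are relative to the bulk of the transcripts.

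A gene was represented by the probe set that had its highest average across the 12 arrays (the brightest), and it was called when limma's Benjamini-Hochberg adjusted p over all tested probe sets was under 0.001 and the change exceeded 1.5-fold (0.58 on the log2 scale). At 12 h 14 of the 32 members fell and none rose, where 6.30% of all genes fell and 4.26% rose. The count of falls was 27 of 32 at 24 h, where 10.0% of all genes fell and 8.01% rose, and 28 of 32 at 72 h, where 11.0% fell and 8.73% rose. With a limit of 2-fold the count at 12 h was 6, and with scaling to the poly-A controls it was 21. The 4 members not called at 72 h were CENPC, CENPN, SKA1 and SGO2. The median change of the members was -0.58, -2.68 and -2.75 at 12, 24 and 72 h, and that of all genes was 0.01, 0.03 and 0.02. Since the arrays measured RNA of whole cultures, fewer dividing cells and less of each transcript per cell cannot be told apart.

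**Figure D1:**
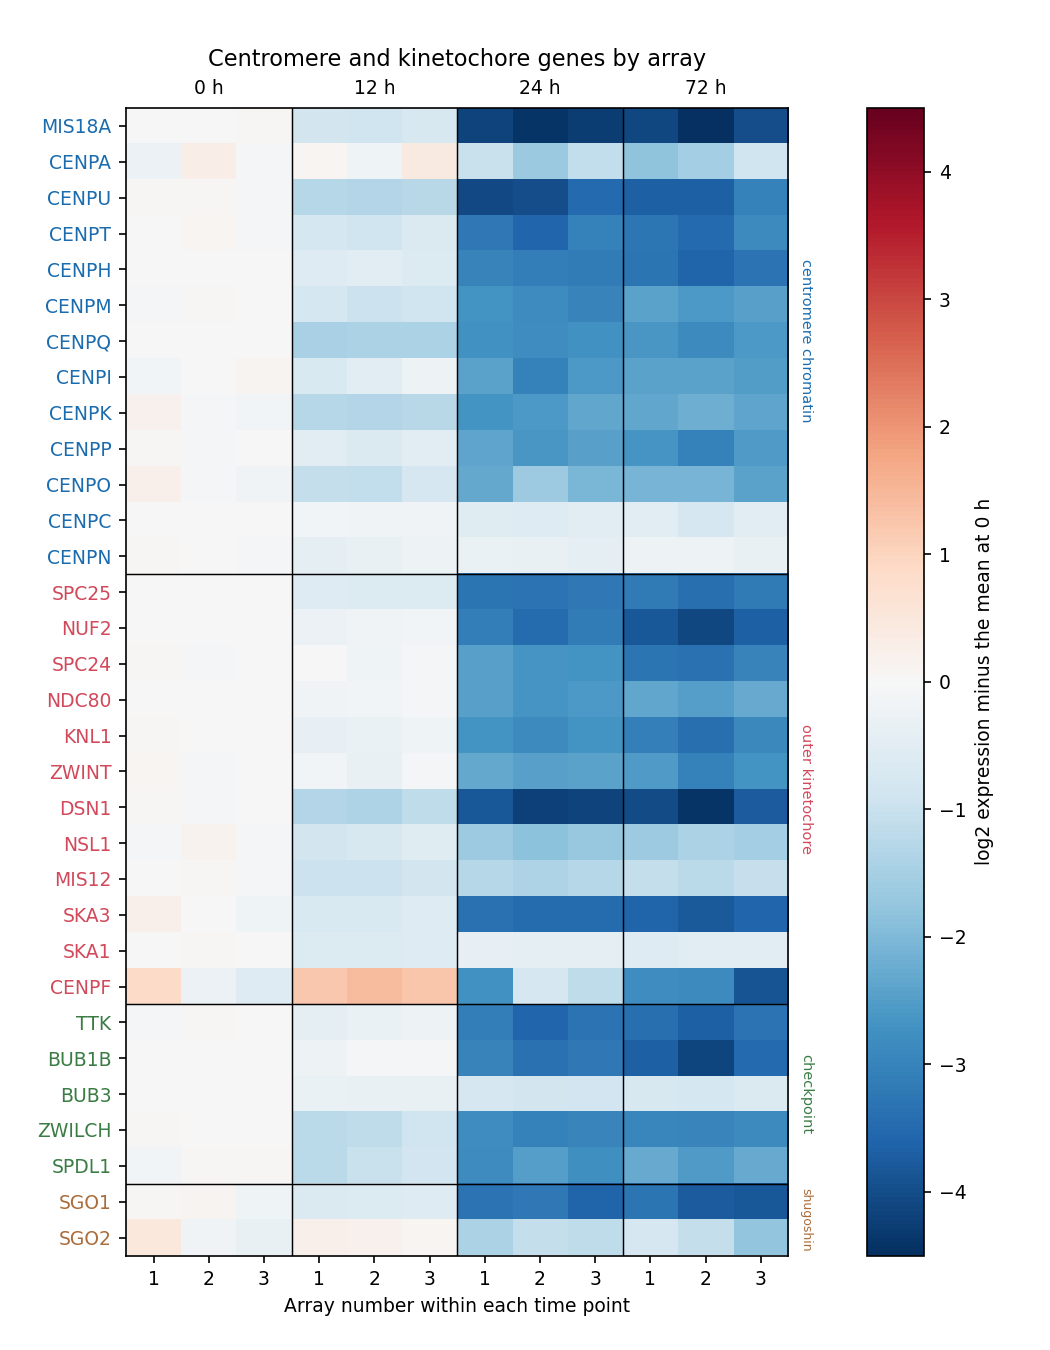
Log2 expression of the 32 measured members (brightest probe set of each) in each of the 12 arrays, as the difference from the mean of the 3 arrays at 0 h, with rows grouped by class and columns by time with 100 nM masitinib. The blue columns start at 24 h for most rows, while a part of the rows, such as CENPQ, CENPK and DSN1, is already blue at 12 h, and CENPC, CENPN and SKA1 stay pale.

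For most members the larger step came between 12 and 24 h. Directly compared, 25 of 32 members fell from 12 to 24 h and none rose, where 3.10% of all genes fell and 1.41% rose. From 24 to 72 h 1 member fell and none rose, where 1.81% of all genes fell and 1.96% rose. In order of time, 13 members were called at all 3 times and 14 at 24 and 72 h. CENPF was called at 72 h alone and SKA1 at 12 h alone, and CENPC, CENPN and SGO2 at none. Shares of all genes with these patterns were not computed.

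The class medians at 24 h lay close together. The median change at 24 h was -2.68 over the centromere chromatin genes, -2.58 over the outer kinetochore genes and -2.95 over the checkpoint genes. At 72 h these medians were -2.47, -3.15 and -2.93, and at 12 h -0.77, -0.44 and -0.33. At 12 h 6 of 13, 6 of 12 and 2 of 5 fell, where 6.30% of all genes did. At 24 h these numbers were 11 of 13, 10 of 12 and 5 of 5, where 10.0% of all genes fell. At 72 h they were 11 of 13, 11 of 12 and 5 of 5, where 11.0% of all genes fell. Taken array by array, the medians at 12 h ran from -0.90 to -0.64 for centromere chromatin. They ran from -0.47 to -0.37 for the outer kinetochore and from -0.43 to -0.33 for the checkpoint. Members are not replicates, and the classes were not tested against each other.

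Within a class the complexes differed in how many of their members were called at 12 h. Of all genes 6.30% fell at 12 h. At that time all 3 listed members of the MIS12 complex, ZWILCH, SPDL1, SKA1, SKA3 and 5 of 11 CCAN genes had fallen. Against this stood 1 of 4 members of the NDC80 complex, neither KNL1 nor ZWINT, and none of BUB1B, BUB3 and TTK. These counts depend on the fold limit. At 12 h MIS12, NSL1, SKA1 and SKA3 fell less than 2-fold (1.90-fold, 1.62-fold, 1.52-fold and 1.57-fold). So did CENPM and CENPO of the CCAN (1.84-fold and 1.96-fold) and SPC25 of the NDC80 complex (1.51-fold). For members called at 24 h, the change at 12 h was also expressed as a share of the change at 24 h. Its median was 40.1% for the MIS12 complex (31.6% to 70.7%), 37.4% for ZWILCH and SPDL1, 30.9% for the 9 CCAN genes called at 24 h (17.2% to 52.6%), 9.75% for BUB1B, BUB3 and TTK (3.31% to 39.8%) and 5.07% for the NDC80 complex (3.11% to 18.2%). By class the median share was 23.6% for 11 centromere chromatin genes, 14.2% for 10 outer kinetochore genes and 36.4% for 5 checkpoint genes. The checkpoint genes were split, with 3.31% and 9.75% for BUB1B and TTK and 36.4% to 39.8% for ZWILCH, SPDL1 and BUB3. These shares are a description, and differences between complexes were not tested.

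**Figure D2:**
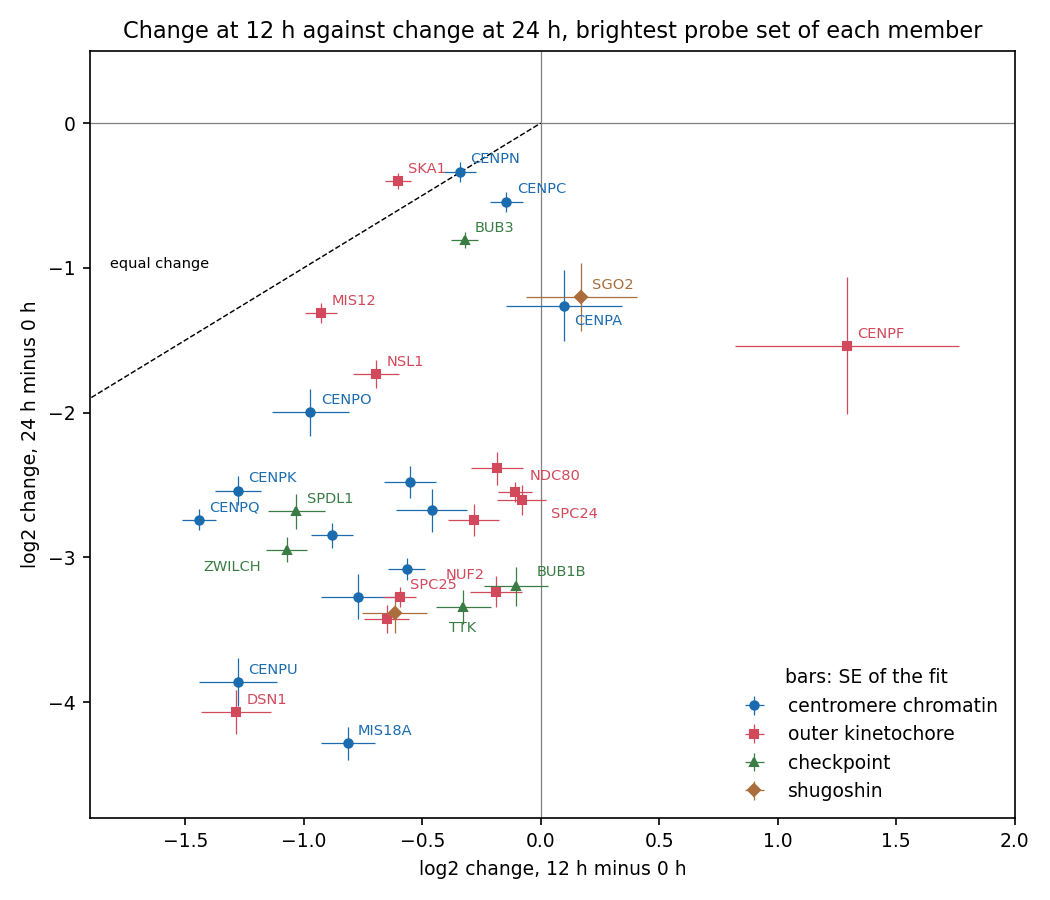
Change of each measured member at 12 h (horizontal axis, log2 against 0 h) and at 24 h (vertical axis, log2 against 0 h), with 3 arrays per time point, bars of 1 standard error (SE) and a dashed line of equal change at both times. NDC80, NUF2, SPC24, BUB1B and TTK lie near 0 at 12 h and at -2.55 or lower at 24 h, whereas for MIS12, CENPQ, CENPK and CENPO the change at 12 h was between 48.6% and 70.7% of that at 24 h.

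Within the CENP-A group, MIS18A, a subunit of the complex that licenses the loading of new CENP-A, had by brightest probe sets the largest change of all members at 24 and 72 h. Its values were 10.53, 10.53 and 10.59 at 0 h, 9.74, 9.65 and 9.82 at 12 h, 6.39, 6.15 and 6.27 at 24 h and 6.46, 6.04 and 6.55 at 72 h. The arrays of 0 h, 12 h and the later times did not overlap, while those of 24 and 72 h did. The change was -0.81 at 12 h (SE 0.114, adjusted p = 0.000114 from limma), -4.28 at 24 h (adjusted p = 3.24e-11) and -4.20 at 72 h, which is 19.5-fold lower at 24 h. The second MIS18A probe set changed less, with -0.56 at 12 h, just under the fold limit and not called, -2.11 at 24 h (4.31-fold lower) and -2.21 at 72 h (SE 0.0849). CENPA, the histone variant itself, stood at 9.37, 9.90 and 9.57 at 0 h, 9.71, 9.41 and 10.01 at 12 h, 8.62, 7.93 and 8.50 at 24 h and 7.80, 8.09 and 8.72 at 72 h. No array at 12 h was below all those at 0 h, and every array at 24 and 72 h was. Its change of -1.26 at 24 h (SE 0.244) passed by a small margin (adjusted p = 0.000992 from limma) and did not pass when any of 10 of the 12 arrays was left out, the exceptions being array 1 and array 3 at 72 h. At 72 h the call was lost without array 2 or 3 at 0 h, or array 1 or 2 at 72 h. The dimmer of its probe sets had tighter replicates and read -2.72 at 24 h and -3.09 at 72 h (SE 0.113, adjusted p = 1.04e-09 and 2.71e-10 from limma).

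The largest fall at 12 h was that of an inner kinetochore gene, CENPQ. CENPQ, CENPU, CENPO and CENPP belong to one CCAN subcomplex. CENPQ stood at 8.93, 8.93 and 8.92 at 0 h, 7.46, 7.51 and 7.49 at 12 h, 6.20, 6.14 and 6.21 at 24 h and 6.30, 6.05 and 6.33 at 72 h. The array groups of 0, 12 and 24 h were narrow and far apart, and 52.6% of the change at 24 h was present at 12 h. The changes were -1.44 at 12 h (SE 0.0727, adjusted p = 2.19e-08 from limma) and -2.74 at 24 h. For CENPU the values were 9.23, 9.22 and 9.10 at 0 h, 7.91, 7.88 and 7.93 at 12 h, 5.11, 5.18 and 5.67 at 24 h and 5.53, 5.52 and 6.15 at 72 h. By brightest probe sets CENPU had the largest fall of the inner kinetochore at 24 h, with changes of -1.28, -3.86 and -3.45 at 12, 24 and 72 h (SE 0.166). CENPO stood at 6.86, 6.58 and 6.50 at 0 h, 5.58, 5.54 and 5.90 at 12 h, 4.35, 5.02 and 4.57 at 24 h and 4.55, 4.54 and 4.25 at 72 h, with changes of -0.97, -1.998 and -2.198 (SE 0.163). Its call at 12 h (adjusted p = 0.000485 from limma) was lost without any one of the arrays at 0 h, and without array 1 or array 2 at 12 h. CENPP, at -0.55, -2.48 and -2.75 (SE 0.11), did not pass at 12 h (adjusted p = 0.00188 from limma).

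CENPH, CENPI, CENPK and CENPM form another subcomplex, needed for the recruitment of the outer kinetochore. CENPK values were 8.90, 8.66 and 8.58 at 0 h, 7.44, 7.41 and 7.46 at 12 h, 6.02, 6.14 and 6.36 at 24 h and 6.39, 6.52 and 6.33 at 72 h. Every array at 12 h was more than 2-fold below every array at 0 h, and the change was -1.28 at 12 h (SE 0.0982, adjusted p = 6.51e-07 from limma), -2.54 at 24 h and -2.30 at 72 h. CENPM stood at 9.61, 9.72 and 9.64 at 0 h, 8.86, 8.69 and 8.76 at 12 h, 6.98, 6.81 and 6.63 at 24 h and 7.26, 7.08 and 7.22 at 72 h. It too fell at each time, with changes of -0.88, -2.85 and -2.47 (SE 0.0883), and its second, dim probe set read -0.58 at 72 h and passed at no time. CENPH stood at 11.39 ± 0.01 at 0 h and 10.83 ± 0.04 at 12 h (SD, n = 3), a difference of -0.57 (SE 0.0787, adjusted p = 0.000107 from limma) that stayed just under the fold limit. At 24 and 72 h CENPH changed by -3.08 and -3.40. CENPI, on a probe set with larger spread (SE 0.15), read -0.46 at 12 h and changed by -2.68 and -2.44 at 24 and 72 h. CENPT, a histone-fold protein that can bind the NDC80 complex directly, had changes of -0.77, -3.27 and -3.20 (SE 0.155), of which the first did not pass (adjusted p = 0.00188 from limma), and its second probe set read -0.37, -1.74 and -1.45, with the same calls.

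CENPC and CENPN contact the CENP-A nucleosome directly, and neither was called by its brightest probe set. CENPC, which also tethers the MIS12 complex, stood at 11.35, 11.35 and 11.35 at 0 h, 11.23, 11.18 and 11.19 at 12 h, 10.81, 10.79 and 10.83 at 24 h and 10.86, 10.61 and 10.84 at 72 h. The groups of 0, 12 and 24 h did not overlap, but the differences were small, -0.14, -0.54 and -0.58 (SE 0.0691). At 72 h the adjusted p was 1.51e-05 (limma), and the size lay just under the 1.5-fold limit, which it exceeded without array 1 or array 3 at 72 h (-0.62 and -0.61). The other 3 probe sets of CENPC gave no call either. One of them, with an SE of 0.51, ran with the residual component (r = 0.98 over the 12 arrays).

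CENPN was the member whose probe sets differed most. The brightest stood at 10.07, 10.00 and 9.93 at 0 h, 9.56, 9.66 and 9.76 at 12 h, 9.71, 9.68 and 9.60 at 24 h and 9.77, 9.76 and 9.67 at 72 h, with changes of -0.34, -0.34 and -0.27 (SE 0.0691). Its next probe sets stood near it before treatment, at 9.87, 9.86 and 9.78 at 0 h and 6.52, 6.26 and 6.49 at 72 h for one and at 10.15, 10.07 and 10.16 at 0 h and 6.37, 6.33 and 6.50 at 72 h for the other. At 72 h they changed by -3.42 and -3.73 (SE 0.0995 and 0.175, adjusted p = 4.28e-11 and 2.52e-09 from limma). The remaining, dim probe set read 0.22 and was not called. The files do not say which transcript or exon each probe set reads, so the count of 4 members not called at 72 h includes a gene that 2 of its 4 probe sets put among the larger falls.

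**Figure D3:**
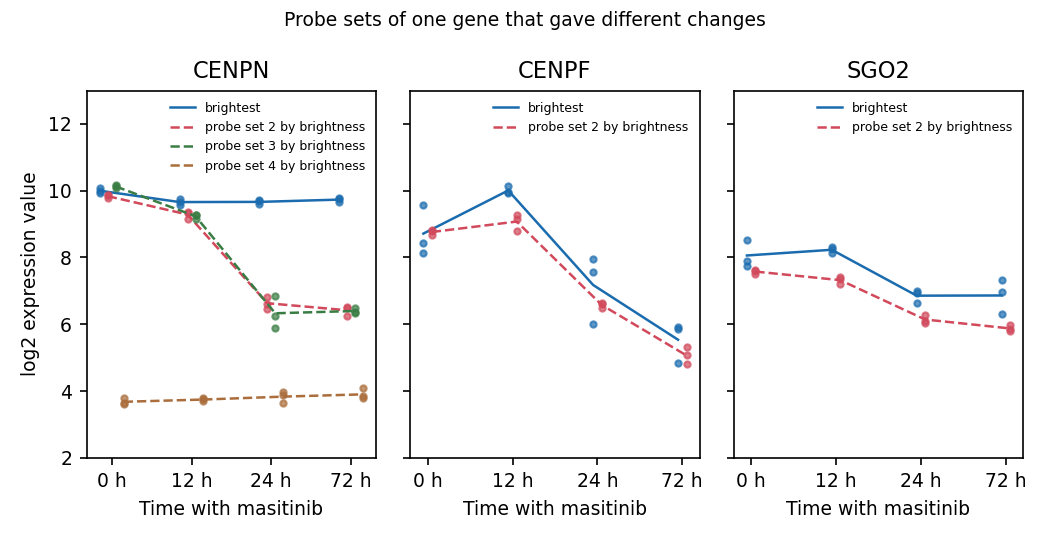
Log2 expression value of each probe set of CENPN, CENPF and SGO2 in each array (points) and its mean per time point (lines, solid for the brightest), with time points drawn at even distances. The brightest CENPN probe set changed by at most -0.34 while 2 others changed by -3.42 and -3.73 at 72 h, and at 0, 24 and 72 h the 3 points of the brightest CENPF and SGO2 probe sets spread more widely than those of the second, but not at 12 h.

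In the outer kinetochore the MIS12 complex, the link between CENPC and KNL1 or NDC80, had all 3 of its listed members called at 12 h. DSN1 stood at 9.58, 9.50 and 9.53 at 0 h, 8.23, 8.14 and 8.38 at 12 h, 5.71, 5.32 and 5.37 at 24 h and 5.52, 5.11 and 5.79 at 72 h. The array groups of 0, 12 and 24 h did not overlap, and its changes of -1.29, -4.07 and -4.06 (SE 0.149) were by brightest probe sets the largest of the outer kinetochore at 24 and 72 h, while the second NUF2 probe set read -4.20 at 72 h. MIS12 itself stood at 9.08, 9.10 and 9.01 at 0 h, 8.10, 8.08 and 8.23 at 12 h, 7.78, 7.68 and 7.79 at 24 h and 8.00, 7.86 and 8.02 at 72 h. MIS12 changed by -0.93 at 12 h (SE 0.0667, adjusted p = 3.66e-07 from limma) and by -1.31 at 24 h, so 70.7% of its change at 24 h was present at 12 h, and the step from 12 to 24 h, -0.39, did not pass. NSL1 stood at 8.02, 8.28 and 8.04 at 0 h, 7.29, 7.40 and 7.57 at 12 h, 6.48, 6.26 and 6.405 at 24 h and 6.49, 6.68 and 6.59 at 72 h. Its changes were -0.69, -1.73 and -1.53 (SE 0.0959), and a dimmer probe set gave -0.89, -2.09 and -2.15. The dimmest NSL1 probe set read -0.15, -0.41 and -0.50 and was called at no time. The second MIS12 probe set fell at 12 h as well, with -0.70, and the third read -0.49 there without a call and changed by -0.80 and -0.82 later.

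Members of the NDC80 complex, which couples kinetochores to microtubules, had their calls at 24 h, with 1 exception. NDC80 (also called HEC1) stood at 11.66, 11.69 and 11.66 at 0 h, 11.52, 11.55 and 11.62 at 12 h, 9.22, 9.03 and 9.10 at 24 h and 9.34, 9.20 and 9.39 at 72 h. The 3 arrays at 12 h lay just below those at 0 h, a difference of -0.11 (SE 0.0698, adjusted p = 0.312 from limma) that did not pass, and those at 24 h lay 5.86-fold below. All 3 NDC80 probe sets fell at 24 h, with changes of -2.55 to -2.86. NUF2, the partner of NDC80 at the microtubule end, stood at 11.37, 11.35 and 11.33 at 0 h, 11.08, 11.18 and 11.21 at 12 h, 8.23, 7.90 and 8.21 at 24 h and 7.53, 7.24 and 7.68 at 72 h. Its changes were -0.19, -3.24 and -3.86 (SE 0.11), the largest of this complex at 72 h. SPC24 and SPC25 form the other end, which anchors the complex. SPC25 stood at 11.96, 11.93 and 11.93 at 0 h, 11.36, 11.34 and 11.33 at 12 h, 8.64, 8.62 and 8.74 at 24 h and 8.77, 8.54 and 8.76 at 72 h, and it was the single member of this complex to fall at 12 h (-0.60, SE 0.0692, adjusted p = 2.32e-05 from limma), close to the fold limit, with -3.28 and -3.25 later. SPC24 stood at 9.95, 9.80 and 9.91 at 0 h, 9.88, 9.69 and 9.84 at 12 h, 7.45, 7.22 and 7.18 at 24 h and 6.61, 6.51 and 6.89 at 72 h, a change of -0.08 at 12 h with overlapping arrays, and -2.60 and -3.21 later (SE 0.103). Both dim probe sets of SPC24 gave no call, with -0.15 and 0.21 at 72 h.

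**Figure D4:**
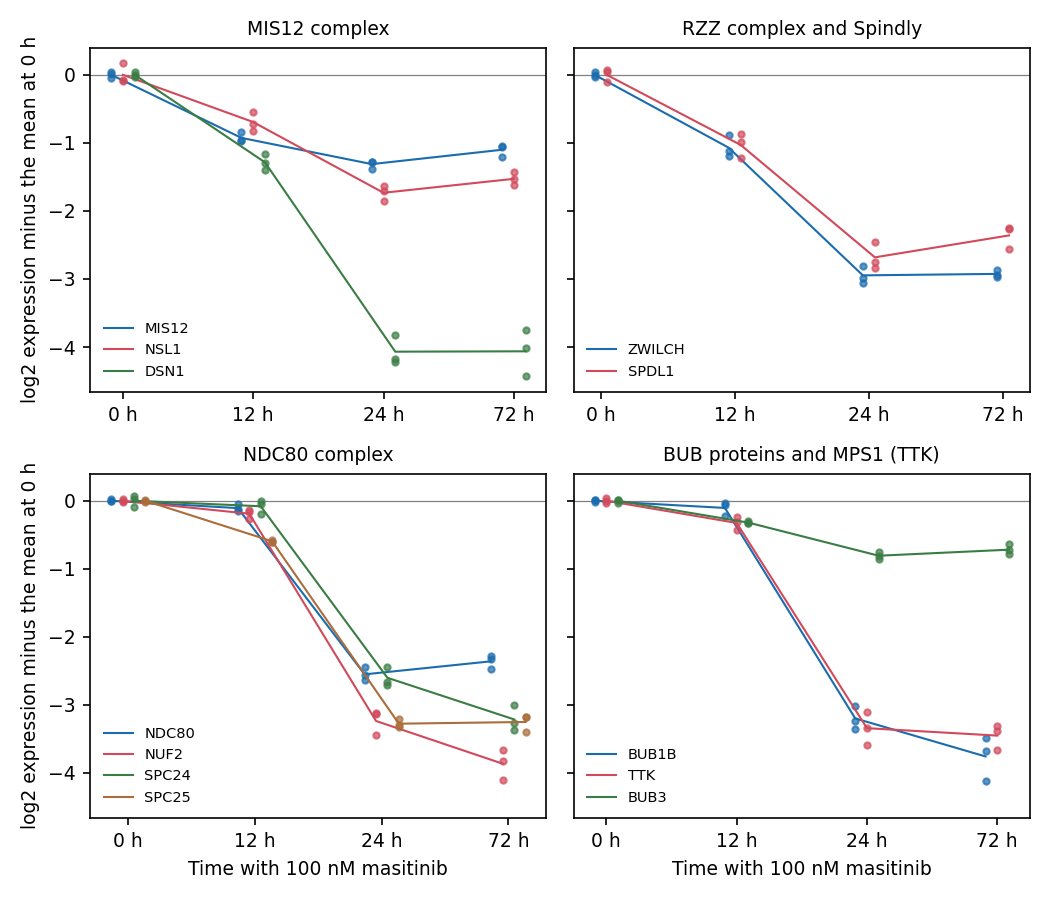
Log2 expression of the members of 4 kinetochore groups as the difference from the mean at 0 h, with a point for each array and a line through the mean of the 3 arrays per time point, and with time points drawn at even distances. The MIS12 complex, ZWILCH and SPDL1 lie 0.69 to 1.29 below 0 at 12 h, while NDC80, NUF2, SPC24, BUB1B and TTK lie 0.08 to 0.33 below it and reach -2.55 to -3.34 at 24 h.

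KNL1, the scaffold on which the BUB proteins assemble, stood at 9.54, 9.50 and 9.48 at 0 h, 9.14, 9.23 and 9.31 at 12 h, 6.81, 6.66 and 6.83 at 24 h and 6.42, 6.10 and 6.62 at 72 h, and changed by -2.74 and -3.13 at 24 and 72 h after -0.28 at 12 h (SE 0.108, adjusted p = 0.0721 at 12 h from limma). Its partner ZWINT had -0.18, -2.39 and -2.75 (SE 0.111), again without a call at 12 h. Their second probe sets changed by -2.81 and -2.96 (KNL1) and by -1.61 and -2.03 (ZWINT) at 24 and 72 h, whereas the third, dim KNL1 probe set read 0.29, -0.17 and -0.39 and was not called. The share of the 24 h change present at 12 h was 10.3% for KNL1 and 7.74% for ZWINT.

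The SKA complex, which keeps kinetochores on shortening microtubules, held members with different courses. SKA3 stood at 10.70, 10.46 and 10.30 at 0 h, 9.82, 9.79 and 9.90 at 12 h, 7.11, 7.04 and 7.03 at 24 h and 6.88, 6.70 and 6.93 at 72 h. It changed by -0.65, -3.43 and -3.65 (SE 0.0953), although its call at 12 h was lost without array 1 at 0 h, or array 1 or 2 at 12 h. SKA1 stood at 10.63, 10.71 and 10.65 at 0 h, 10.04, 10.05 and 10.09 at 12 h, 10.29, 10.27 and 10.23 at 24 h and 10.07, 10.16 and 10.17 at 72 h. Its mean was lowest at 12 h, where the arrays overlapped those of 72 h, and the change there was -0.60 (SE 0.0552, adjusted p = 3.01e-06 from limma), and the differences at 24 and 72 h, -0.40 and -0.53, had adjusted p of 6.11e-05 and 4.44e-06 but stayed under the fold limit. The second SKA1 probe set read -0.54, -0.42 and -0.55, all under that limit, and without array 2 at 0 h the call at 12 h was lost.

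CENPF, a large protein of the fibrous corona that builds up before mitosis, had the largest positive difference of the members at 12 h, before SGO2 with 0.17 and CENPA with 0.10. Its brightest probe set stood at 9.56, 8.45 and 8.13 at 0 h, 9.92, 10.14 and 9.96 at 12 h, 6.00, 7.97 and 7.56 at 24 h and 5.91, 5.85 and 4.85 at 72 h. All 3 arrays at 12 h were above those at 0 h and all at 24 h below, yet with the wide spread at 0 and 24 h the difference of 1.29 at 12 h (SE 0.473, adjusted p = 0.0608 from limma) and that of -1.54 at 24 h (adjusted p = 0.0204) did not pass. CENPF changed by -3.18 at 72 h (adjusted p = 0.000106) and by -2.83 between 12 and 24 h (adjusted p = 0.000978). The call between 12 and 24 h held without array 1 at 0 h, array 2 at 24 h or array 3 at 72 h and was lost without any other array. Its second probe set stood at 8.79, 8.83 and 8.67 at 0 h, 8.79, 9.16 and 9.27 at 12 h, 6.64, 6.50 and 6.60 at 24 h and 4.81, 5.08 and 5.31 at 72 h. There the arrays of 0 and 12 h overlapped (0.31, SE 0.132, adjusted p = 0.105 from limma), and the gene changed by -2.18 at 24 h and -3.70 at 72 h. The brightest probe set ran with the residual component (r = 0.91 over the 12 arrays). With that component, which was itself computed from these arrays and added after the data were seen, as a covariate the difference at 12 h passed as a rise (SE 0.205, adjusted p = 0.000339 from limma), and the fall at 24 h passed too (adjusted p = 5.26e-05). The covariate left the differences at 1.29 and -1.54 and lowered the SE alone, so these passes are no separate support.

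Among checkpoint genes, the kinase TTK (MPS1) starts the signal, and BUB1B (BUBR1) and BUB3 take part in the complex that inhibits the anaphase-promoting complex. BUB1B stood at 9.81, 9.83 and 9.84 at 0 h, 9.61, 9.77 and 9.79 at 12 h, 6.81, 6.48 and 6.60 at 24 h and 6.16, 5.71 and 6.34 at 72 h. The fall at 24 h, -3.20 (SE 0.134, adjusted p = 1.15e-09 from limma), followed a difference of -0.11 at 12 h, and at 72 h it was -3.76, the largest of the checkpoint genes. TTK stood at 9.61, 9.68 and 9.64 at 0 h, 9.21, 9.33 and 9.41 at 12 h, 6.54, 6.06 and 6.30 at 24 h and 6.27, 5.98 and 6.33 at 72 h, with -0.33, -3.34 and -3.45 (SE 0.117). BUB3, which also has roles outside mitosis, had the smallest changes of the checkpoint genes at 24 and 72 h. Its values were 11.66, 11.62 and 11.66 at 0 h, 11.34, 11.32 and 11.31 at 12 h, 10.89, 10.83 and 10.79 at 24 h and 10.92, 10.86 and 11.01 at 72 h, with narrow groups that did not overlap between 0, 12 and 24 h. The changes were -0.32, -0.81 and -0.72 (SE 0.0577), and the second probe set of BUB3 read -0.25, -0.90 and -0.77. The third read -0.39, -0.96 and -0.46, called at 24 h alone, and the fourth, dim one 0.02, -0.25 and -0.22, called at no time. The adjusted p of BUB3 at 12 h was 0.000845 (limma), but the size was under the fold limit.

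ZWILCH is a subunit of the RZZ complex, which brings dynein and the MAD proteins to unattached kinetochores, and SPDL1 (Spindly) is the adaptor between RZZ and dynein. ZWILCH stood at 9.15, 9.08 and 9.10 at 0 h, 7.91, 7.98 and 8.22 at 12 h, 6.31, 6.06 and 6.12 at 24 h and 6.17, 6.14 and 6.25 at 72 h. It changed by -1.07 at 12 h (SE 0.0869, adjusted p = 1.03e-06 from limma), -2.95 at 24 h and -2.93 at 72 h. SPDL1 stood at 9.55, 9.73 and 9.71 at 0 h, 8.44, 8.67 and 8.79 at 12 h, 6.82, 7.20 and 6.92 at 24 h and 7.41, 7.10 and 7.40 at 72 h. For both genes every array at 12 h lay below those at 0 h and above those at 24 h. SPDL1 changed by -1.03, -2.68 and -2.36 (SE 0.12). A dimmer SPDL1 probe set with an SE of 0.287 read -0.43 at 12 h without a call and changed by -2.92 and -2.62 later.

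The shugoshins were also unequal. SGO1 stood at 8.07, 8.15 and 7.81 at 0 h, 7.36, 7.40 and 7.42 at 12 h, 4.67, 4.79 and 4.41 at 24 h and 4.71, 4.27 and 4.18 at 72 h, a change of -3.39 at 24 h and -3.62 at 72 h after -0.62 at 12 h (SE 0.137, adjusted p = 0.00401 at 12 h from limma). SGO2 stood at 8.54, 7.91 and 7.73 at 0 h, 8.30, 8.25 and 8.14 at 12 h, 6.65, 6.98 and 6.93 at 24 h and 7.31, 6.98 and 6.30 at 72 h. All arrays at 24 and 72 h were below those at 0 h, but the differences of -1.20 and -1.20 (SE 0.235) had adjusted p of 0.00106 and 0.00103 (limma) and missed the threshold by a small margin, which they passed without array 3 at 0 h or array 1 at 72 h, and at 24 h also without array 3 at 72 h. The second probe set of SGO2, with an SE of 0.0849, changed by -1.44 and -1.70. The brightest one ran with the residual component (r = 0.94), and with it as a covariate both differences passed (adjusted p = 4.77e-07 and 4.43e-07 from limma). The component was computed from the residuals of these same arrays. It left both differences at -1.20 and lowered the SE alone, so these passes are no separate support.

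Among the 20 members with several probe sets, all probe sets fell at 72 h in 11, some in 7 and none in 2 (CENPC and SKA1). Of the 31 probe sets that were not the brightest, those that fell numbered 2, 20 and 19 at 12, 24 and 72 h, and none rose. The shares over all genes by their brightest probe sets were 6.30%, 10.0% and 11.0% for falls. Shares over all other probe sets, or over all genes with several, were not computed.

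After 24 h 1 of 32 members was called, where 1.81% of all genes fell and 1.96% rose. The class median of the difference between 72 and 24 h was 0.07 for centromere chromatin. It was -0.17 for the outer kinetochore and 0.02 for the checkpoint. Taken array by array, the outer kinetochore median change from 0 h ran from -2.65 to -2.57 at 24 h. At 72 h it ran from -3.20 to -2.94, below the arrays of 24 h. SPC24 was the member called, with -0.61 (adjusted p = 0.000996 from limma), so near the threshold that the call was lost without any 1 of the arrays other than array 3 at 72 h. CENPF had -1.64 (adjusted p = 0.0287) by its brightest and -1.51 (adjusted p = 6.58e-06) by its second probe set, which passed. NUF2 had -0.63 (adjusted p = 0.00134) and -0.84 (adjusted p = 0.000215), of which the second passed. In the other direction CENPU, CENPM and SPDL1 had 0.41, 0.38 and 0.32, with no call (adjusted p = 0.119, 0.00854 and 0.0893 from limma).

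Other genes of the pathway were counted in the same way from 3 lists. Of 14 measured among 20 other centromere and kinetochore genes, the falls numbered 4, 8 and 8 at 12, 24 and 72 h, and 1 gene rose at 24 and 72 h, with medians of -0.30, -1.29 and -0.91. Of all genes 6.30%, 10.0% and 11.0% fell at these times, and 8.01% and 8.73% rose at 24 and 72 h. At 72 h the largest falls were those of TRIP13, the ATPase that takes apart the checkpoint complex (-2.95, SE 0.0926), the RZZ subunit KNTC1 (-2.68), the dynein regulator NDE1 (-2.02) and CENPS, a partner of CENPT (-1.96, but -0.42 without a call by its second probe set). CLASP2, a microtubule-binding protein chosen after its values were seen, was the gene that rose (0.79 and 0.69, SE 0.07), though not by its second probe set (0.55 and 0.53) or its dimmest one. The other subunits of RZZ, also looked at after the values were seen, read -0.75, -1.44 and -1.20 for ZW10 (SE 0.0604) and -0.56, -3.11 and -2.68 for KNTC1 (SE 0.121), so ZW10 had fallen by 12 h as ZWILCH had, and KNTC1 did not pass at 12 h (adjusted p = 0.00334 from limma).

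The list for the chromosomal passenger complex, which corrects faulty attachments through the kinase AURKB, held 4 subunits and HASPIN, the histone kinase that recruits it. None of the 4 subunits was called at 12 h and HASPIN was, and 5 of 5 genes fell at 24 and 72 h, against the shares of all genes given above. The median change of the list was -0.19, -1.58 and -2.46. HASPIN had -0.91, -3.19 and -2.77 (SE 0.14), and its call at 12 h was lost without any one of the arrays at 0 h or without array 1 or 2 at 12 h. AURKB had 0.03, -2.27 and -2.46 (SE 0.0921) and CDCA8 (borealin) -0.49, -1.28 and -1.93 (SE 0.165). BIRC5 (survivin) had 0.21, -0.98 and -2.73 (SE 0.087), and its step from 24 to 72 h, -1.75, passed as well (adjusted p = 9.52e-08 from limma). The second BIRC5 probe set had -0.22, -2.30 and -3.07 (SE 0.0957), with a larger change at 24 h and a step of -0.77 after it. INCENP had -0.19, -1.58 and -1.71 (SE 0.0585), and of its 4 other probe sets 1 was called, with -1.58 at 72 h.

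The anaphase-promoting complex, the ubiquitin ligase that the checkpoint restrains, had called and uncalled members. All 16 genes of this list were measured. By brightest probe sets 4, 7 and 8 of them fell at 12, 24 and 72 h and none rose, with medians of -0.14, -0.45 and -0.55. Of all genes 6.30%, 10.0% and 11.0% fell at these times, and 4.26%, 8.01% and 8.73% rose. ANAPC11, chosen after its values were seen, read 0.56 at 72 h, under the fold limit. Its dimmer probe sets were called there as rises, with 0.69 and 0.78. The activator of the complex, CDC20, read -0.03, -2.73 and -3.44 (SE 0.0891). The core subunits CDC23, ANAPC7 and ANAPC1 had -0.90, -2.09 and -2.26 (SE 0.121), -1.43, -1.77 and -1.49 (SE 0.0787) and -0.89, -1.79 and -1.29 (SE 0.0761). CDC20 was not called at 12 h, and these 3 subunits were. The second, dim probe set of CDC23 read -0.00, -0.09 and -0.23 and was called at no time.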

How the data were processed

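RNA of 12 flasks of C2 cells was hybridised to Affymetrix Canine Genome 2.0 arrays, 3 per time point. Per the study's methods, the authors processed the scans in Partek software by a gcRMA workflow with quantile normalization (Partek and RMA are also listed in the submitters' processing notes). What they deposited is 1 log2 expression value for each probe set on each array. Quantile normalization removes a shift shared by most transcripts. From these values, limma 3.58.1 in R 4.3.3 (lmFit and eBayes, 1 coefficient per time point, no other covariate) compared 42924 probe sets without 111 Affymetrix controls. A call needed more than 1.5-fold change and a Benjamini-Hochberg adjusted p below 0.001. Platform symbols were used (29254 probe sets with 1 symbol, 439 with several, 13231 with none). The number of arrays limits the precision, with a median residual SD of 0.1124.

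The members, their classes and the other lists were chosen with earlier results of these data known. Every measured member is accounted for, and those described in most detail are the largest called change of each complex, genes called at 12 h, genes not called at 72 h and genes whose probe sets disagree. Of the other lists up to 4 genes with the largest called change at 72 h are named. Alternatives covered thresholds, the methods' analysis of variance, scaling, dim probe sets, the choice of probe set, arrays in the fit, each array left out and a replicate block. A residual component as a covariate was added after the data were seen. The steps were tested on simulated data. Figures were drawn with matplotlib 3.10.9.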

Additional observations from a re-analysis of the deposited data

Results flagged for a closer look

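SPC24 was picked out because its change at 72 h differed from that at 24 h in the direct comparison, by a log2 difference of -0.61. For CENPF the differences at 12 h and 24 h had opposite signs, and the step between those times, -2.83, passed the test, although neither difference from 0 h passed by that probe set.

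Probe sets that took no part in the counts gave calls where the brightest one of the gene did not. At 72 h these were 2 of CENPN, with -3.42 and -3.73 against 0 h, and 1 of SGO2, with -1.70. Between 24 h and 72 h they were 1 of NUF2, with -0.84, and 1 of CENPF, with -1.51.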

How the results depend on the processing

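Of 1656 comparisons of the members' calls against 0 h with 24 alternatives, 1608 kept direction and call, 48 kept the direction and lost the call, and 0 changed direction. Many alternatives left the differences as they were and could not change a direction. Among these were the other thresholds, the methods' analysis of variance, the replicate block, the residual component and the removal of dim probe sets. An adjusted p under 0.05 could not lose a call either. With 1 array left out, 12 to 15 members fell at 12 h, 26 to 28 at 24 h, 27 to 29 at 72 h and 23 to 27 between 12 and 24 h. More than 2-fold change left 6 members at 12 h. Between 24 and 72 h the single fall became 3 at an adjusted p under 0.05 and with the residual component, 2 with the probe set of largest change and with the mean of all probe sets, 0 with 2-fold change, with the methods' analysis of variance, with only the arrays compared and with median or poly-A scaling, and 0 to 2 with 1 array left out. The labels do not say whether equal array numbers mark a pair. Deviations of same-numbered arrays correlated at -0.33 to 0.41. For 6 of the 12 arrays the best match at another time had the same number. With a replicate block 14, 28 and 29 members fell at 12, 24 and 72 h. The block gave 24 falls between 12 and 24 h and 1 between 24 and 72 h. Scaling to the poly-A controls, which lowers all later arrays, raised the counts to 21, 32 and 32, and gave medians of -1.07, -3.28 and -2.94 for centromere chromatin, -0.73, -3.18 and -3.63 for the outer kinetochore and -0.62, -3.55 and -3.40 for the checkpoint. With the mean of all probe sets the medians were -0.57, -2.39 and -2.30 for centromere chromatin and -0.37, -1.95 and -2.49 for the outer kinetochore. With the probe set of largest change they were -2.75 at 72 h for centromere chromatin, -2.71 at 24 h for the outer kinetochore and -0.39 at 12 h for the checkpoint. With 1 array left out the medians at 12, 24 and 72 h ran from -0.84 to -0.71, -2.75 to -2.52 and -2.50 to -2.45 for centromere chromatin, from -0.46 to -0.40, -2.64 to -2.54 and -3.19 to -2.93 for the outer kinetochore and from -0.37 to -0.33, -3.02 to -2.89 and -2.96 to -2.90 for the checkpoint. The share of the 24 h change present at 12 h moved to 27.5% (poly-A scaling) and 27.2% (probe set of largest change) for centromere chromatin, 20.1% (poly-A scaling) for the outer kinetochore and 26.1% (mean of all probe sets) for the checkpoint. At 12 h the other centromere and kinetochore genes that fell became 2 with 2-fold change or the mean of all probe sets and 7 with poly-A scaling, the passenger complex 0 with 2-fold change or the methods' analysis of variance, 2 with poly-A scaling and 0 to 1 with 1 array left out, and the anaphase-promoting complex 1 with 2-fold change. At 24 h the last became 4 with 2-fold change and 11 with poly-A scaling. Differences that were not called and turned into calls of the other sign were those of CENPN between 12 and 24 h (-2.91 with the probe set of largest change, -1.37 with the mean of all probe sets), MAD1L1 at 24 h (1.16) and from 24 to 72 h (-0.71) and KIF2C at 72 h (-1.29) with the probe set of largest change, and ANAPC5 at 24 h (-0.59) with poly-A scaling. The causes were not tested. A planned search of promoters for motifs was not run, since promoter sequences were not given here.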
